A study of Mus musculus with 20 samples.

Results

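The replication-dependent histone cluster genes of the mouse were described in 20 RNA-seq libraries of blood progenitor cells. They were chosen by symbol, as every gene named Hist1h, Hist2h, Hist3h or Hist4h in GENCODE M21, a rule that reads the symbol alone. The rule found 70 genes among 53379 gene identifiers, of which 53274 had a symbol. By family they were 6 H1, 20 H2A, 19 H2B, 12 H3 and 13 H4 genes, and 67 of the 70 were annotated as protein-coding. On the GRCm38 build 56 lie on chromosome 13, 10 on chromosome 3, 3 on chromosome 11 and 1, Hist4h4, on chromosome 6. All 70 had at least 1 count in some library, and 66 passed the filter on low counts. The other 4 were Hist1h2aa with 2 counts over 20 libraries, Hist1h2aj with 2, Hist1h2al with 5 and Hist1h2ba with 1.

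The cells were Lin- hematopoietic progenitors of fetal liver, infected with a retroviral vector and harvested after 3 days in culture. Wild-type control and -77KO control cells carried a control vector, and the -77KO mouse lacks the Gata2 -77 enhancer. The other 3 groups were -77KO cells carrying GATA2, GATA2 R307W or GATA2 T354M, each in an MSCV vector. Each group had 4 libraries, and nothing in the labels says that they came from separate animals or cultures, so p-values measure only the spread between these samples. The labels give embryonic day E14.5, strain C57BL/6J and a medium of IMDM with fetal serum, IL3-CM and SCF-CM for both control groups and the GATA2 group. The records of the R307W and T354M groups give no age, strain or medium, so a difference in handling cannot be told apart from the protein change. The vector's level is that of a viral promoter, not of the gene.

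Histone cluster genes encode the bulk histones that package newly copied DNA. H2A, H2B, H3 and H4 form the nucleosome core, and H1 binds the DNA between nucleosomes. Most of the genes have no introns. The genes are expressed mostly in S phase, and most of their transcripts end in a conserved stem-loop instead of a poly(A) tail. The stem-loop is bound by Slbp, and the U7 small nuclear ribonucleoprotein guides the cleavage behind it. Libraries selected for poly(A) lose these transcripts, whereas libraries of total RNA, as labelled here, can hold them. The gene copies encode nearly the same proteins, so a short read often fits several of them.

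The stem-loop is shown first because it marks the class. The pattern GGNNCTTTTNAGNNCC was found in the GENCODE M21 transcript models of 44 of the 70 genes, and in 89 of all 55450 genes in the models (0.161%). The 6 forms among the 44 are given 5′ to 3′ with the loop of 4 bases in capitals.
Form in 26 genes: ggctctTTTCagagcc
Form in 7 genes: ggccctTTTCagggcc
Form in 6 genes: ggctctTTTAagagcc
Form in 2 genes, Hist1h4i and Hist2h4: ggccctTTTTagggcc
Form in 2 genes, Hist1h4b and Hist1h4j: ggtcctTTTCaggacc
Form in 1 gene, Hist2h2ac: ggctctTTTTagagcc
By family the pattern was in 4 of 6 H1, 11 of 20 H2A, 10 of 19 H2B, 8 of 12 H3 and 11 of 13 H4 models. The stems with ggccct and ggtcct belonged to H4 genes, and the other families had ggctct. The model ended within 150 bases behind the motif in 22 genes, as in Hist1h2bb (23 bases) and Hist1h2ab (11 bases). In another 22 it ran further, as in Hist1h2ac (2010 bases) and Hist3h2ba (169 bases). The remaining 26 models, among them Hist1h1a, Hist1h1b, Hist2h2bb and Hist2h2be, do not hold these letters.

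The 250 bases before the start are given for 3 genes called between groups (Hist3h2ba, Hist1h2bb and Hist1h1a), for the H2A genes that face the called Hist3h2bb-ps and Hist2h2be, and for Hist1h4f as the leading H4 gene. They are the RefSeq sequences of GRCm38.p6, printed in lower case on the gene's own strand. Capitals mark 5 motifs in either orientation. TATAAA is the core promoter element that positions the start when it lies shortly before the start. Marks and counts take a match at any place. In Hist1h4f the marked TATAAA is at the far end of the 250 bases. CCAAT is bound by the factor NF-Y, and ATTTGCAT by Oct1. AAACACA is an element described in promoters of H1 genes. AGATAA is the sequence that factors such as Gata2 recognise.
Hist3h2ba, chr11:58948661-58948910, plus strand: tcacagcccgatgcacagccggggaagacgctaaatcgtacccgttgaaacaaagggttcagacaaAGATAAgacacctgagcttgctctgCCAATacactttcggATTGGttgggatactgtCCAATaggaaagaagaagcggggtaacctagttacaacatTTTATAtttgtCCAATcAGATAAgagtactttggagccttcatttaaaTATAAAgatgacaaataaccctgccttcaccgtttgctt
Hist3h2a, chr11:58954435-58954684, plus strand, with the gap to Hist3h2bb-ps: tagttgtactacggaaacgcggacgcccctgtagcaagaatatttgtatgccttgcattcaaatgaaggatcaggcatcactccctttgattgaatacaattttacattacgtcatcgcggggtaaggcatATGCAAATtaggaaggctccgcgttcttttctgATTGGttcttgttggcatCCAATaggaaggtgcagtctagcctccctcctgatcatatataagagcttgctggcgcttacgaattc
Hist2h2ac, chr3:96220881-96221130, minus strand, with the gap to Hist2h2be: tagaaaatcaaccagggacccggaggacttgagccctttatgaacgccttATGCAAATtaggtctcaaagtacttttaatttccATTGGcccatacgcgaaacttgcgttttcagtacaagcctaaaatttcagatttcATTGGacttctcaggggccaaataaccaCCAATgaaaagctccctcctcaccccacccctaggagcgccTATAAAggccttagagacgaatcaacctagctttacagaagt
Hist1h2bb, chr13:23746484-23746733, plus strand: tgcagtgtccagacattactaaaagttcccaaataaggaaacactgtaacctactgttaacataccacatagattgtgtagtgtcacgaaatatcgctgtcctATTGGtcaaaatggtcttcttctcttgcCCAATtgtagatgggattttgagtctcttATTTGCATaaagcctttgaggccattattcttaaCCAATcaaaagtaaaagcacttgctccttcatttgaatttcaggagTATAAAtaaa
Hist1h1a, chr13:23763418-23763667, plus strand: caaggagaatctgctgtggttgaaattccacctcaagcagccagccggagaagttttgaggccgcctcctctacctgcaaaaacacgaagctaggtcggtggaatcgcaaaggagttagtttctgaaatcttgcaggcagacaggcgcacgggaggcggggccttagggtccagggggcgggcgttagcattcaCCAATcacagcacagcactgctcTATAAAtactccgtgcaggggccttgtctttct
Hist1h4f, chr13:23551669-23551918, minus strand: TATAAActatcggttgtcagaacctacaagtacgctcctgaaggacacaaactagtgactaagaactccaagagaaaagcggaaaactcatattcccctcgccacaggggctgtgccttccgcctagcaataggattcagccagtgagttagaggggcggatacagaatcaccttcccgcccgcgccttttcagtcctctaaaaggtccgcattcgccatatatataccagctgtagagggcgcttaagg
Promoter windows of 250 bases before to 50 after the start were found for 62 of the 70 genes. CCAAT was in 53 of 62 (85.5%) against 37.4% of all 32851 windows, and TATAAA in 35 (56.5%) against 13.6%. The CCAAT count took in all windows of H1, H2A, H2B and H3 but only 3 of 12 of H4. ATTTGCAT was in 14 (22.6%) against 1.74% of all windows, 7 of them H2A and 7 H2B. AAACACA was in 9 of 62 against 7.18% of all windows, and 5 of the 6 H1 windows held it, Hist1h1a being the other. AGATAA was in 13 (21.0%) against 11.2% of all windows, and the Hist3h2ba window holds it at 2 places. A match is a string of letters, not a measured binding site.

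Libraries held between 22330475 and 33245876 expected counts, of which 0.294 to 0.826% fell on histone cluster genes. The targeted gene followed the labels: Gata2 was at 31.5 to 53.0 CPM (counts scaled to library size) in wild-type control libraries, 4.72 to 7.67 in -77KO control, and 33.6 to 132 in the 12 libraries with a GATA2 vector. Reads of the vector and of the gene cannot be told apart. Progenitor markers (Kit, Cd34, Ptprc, Myb, Runx1, Spi1) summed to 762 to 1614 CPM over the 20 libraries. Late erythroid markers (Hbb-bs, Hbb-bt, Hba-a1, Slc4a1), all 4 detected, summed to 2379 to 4508 CPM in wild-type control and 108 to 623 in -77KO control. Hepatocyte markers (Alb, Afp, Apoa1, Ttr), all 4 detected, summed to 626 to 2487 CPM in wild-type control and 460 to 1396 in -77KO control.

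Histone cluster transcripts were plentiful in all 5 groups. Levels between genes are compared in TPM, the RSEM abundance that corrects for transcript length. In wild-type control the 70 genes summed to 11558, 5289, 6680 and 13689 TPM in replicates 1 to 4. The sums were 7258, 5930, 6422 and 11040 TPM in -77KO control. With GATA2 they were 5906, 8036, 7009 and 9905 TPM. With R307W they were 5999, 10912, 7201 and 11154 TPM, and with T354M 6303, 6538, 7092 and 9878 TPM. Replicate 4 was highest in each of the 5 groups, and the ranges of all groups overlapped. The -77KO control sum was lower than the wild-type control sum by a mean log2 difference of -0.22, against a pooled SD of 0.44 between replicates. Without wild-type control replicate 4 that difference was 0.0026.

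**Figure D1:**
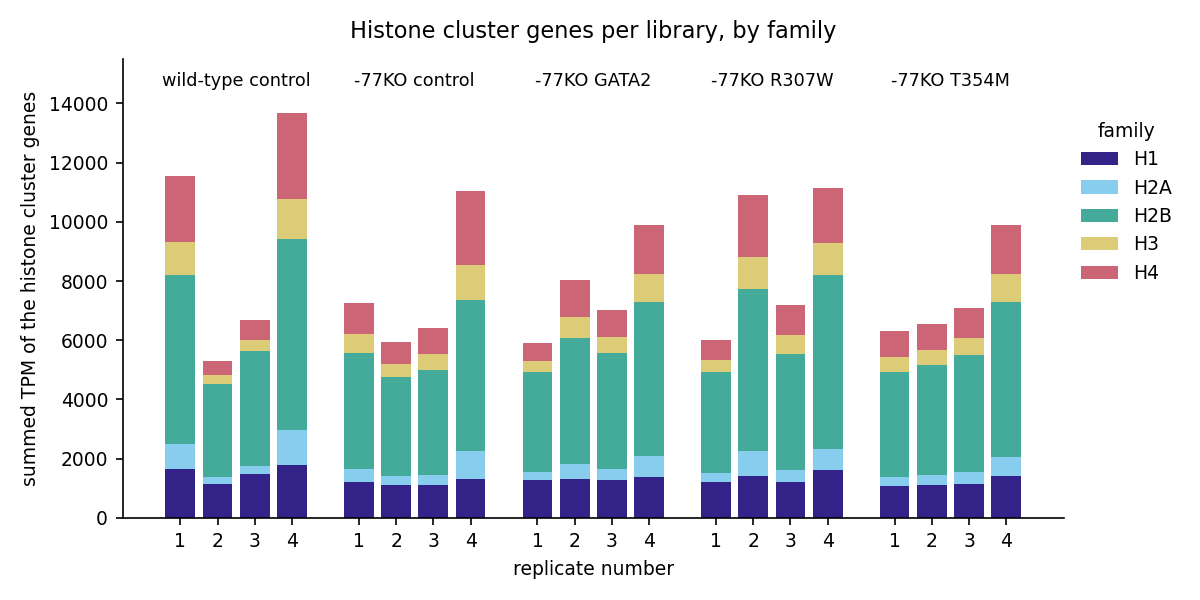
Summed TPM of the 70 histone cluster genes in each of the 20 libraries, stacked by family and arranged by group and replicate number. H2B is the largest block in each bar, and replicate 4 is the highest bar of each group, with sums from 9878 to 13689 TPM.

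H2B genes made up the largest share of the summed TPM. Averaged over the 20 libraries, H2B held 54.0% of the summed TPM, H1 16.8%, H4 14.9%, H3 8.43% and H2A 5.97%. These shares depend on the model lengths, such as 381 bases in Hist2h2bb and 7425 in Hist1h1d. By expected counts H1 was above H2B in some libraries, as in wild-type control replicate 2 (27155 against 26173). In others H2B was higher, as in wild-type control replicate 4 (76339 against 64522). The H2B sum ran from 3156 to 6456 TPM and the H1 sum from 1059 to 1801 TPM. The H4 sum ran from 465 to 2900 TPM, the H3 sum from 301 to 1373 and the H2A sum from 224 to 1158. As a ratio of highest to lowest, H1 and H2B sums thus varied less than H2A, H3 and H4 sums. Nucleosomes hold core histones in equal number, so these RNA shares are not shares of protein.

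Within each family a few genes led. Hist2h2bb had the highest mean of all 70 genes at 1276 TPM, followed by Hist1h2bb at 668, Hist1h1a at 562 and Hist1h2bn at 474. The leading H1 genes by TPM after Hist1h1a were Hist1h1b (363 TPM), Hist1h1c (178 TPM) and Hist1h1e (167 TPM), all linker histones of dividing cells. Hist1h1d was at 44.6 TPM, but its median of 322 CPM was above those of Hist1h1b (238), Hist1h1c (233) and Hist1h1e (298). Its model of 7425 bases runs 4884 bases past the stem-loop motif, and TPM corrects for that length. Among H4 genes Hist1h4f (265 TPM), Hist1h4n (190), Hist1h4h (172) and Hist1h4k (117) led. The leading H3 genes were Hist1h3b (146 TPM), Hist1h3a (90.1), Hist1h3g (88.2) and Hist1h3c (88.1). H2A was led by Hist1h2ab (123 TPM), Hist2h2aa2 (98.1), Hist2h2ac (53.1) and Hist1h2ap (39.9). The testis forms were at or near 0, as Hist1h1t averaged 0.443 TPM and Hist1h2aa and Hist1h2ba had 2 counts and 1 count. The order within a family depends on how reads were divided between copies and on the length of each model.

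Many H2A and H2B genes sit head to head and share the sequence between their starts. Of 15 such pairs among the 70 genes, 14 joined an H2A and an H2B gene, with gaps of 172 to 305 bases. H2B had the higher mean TPM in 12 of the 14, with a median ratio of 5.83 over the 14. These ratios depend on how reads were divided between copies, and the part of the shared sequence in them was not tested. The highest ratios were those of Hist1h2aj (a pseudogene), Hist1h2ah and Hist1h2ai. Of their short transcript stretches only 8.33, 10.8 and 11.6% occurred in no other gene. For Hist1h2ak and Hist1h2ae that share was 84.3 and 69.4%, and H2B was also higher, with ratios of 25.9 and 20.6. Hist2h2ac and Hist2h2be went the other way, at 53.1 and 3.55 TPM, and so did Hist1h2aa and Hist1h2ba, both near 0. Hist3h2a and the pseudogene Hist3h2bb-ps were nearly level at 21.9 and 24.0 TPM.

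Read sharing was extensive. RSEM gives a fractional expected count where it divides reads, and 43 of the 70 genes had a fraction (further than 0.005 from a whole number) in all 20 libraries, 7 in none. Genes with fractions held 77.8 to 87.7% of the histone cluster counts of a library, against 25.1 to 30.8% of all counts. Of the 101-base windows of a gene's transcripts, a median of 64.7% over the 70 genes occurred in no other gene on either strand. The family medians were 99.6% in H1, 81.2% in H4, 67.4% in H2B, 50.6% in H3 and 30.2% in H2A. All windows were unique in Hist1h1a, Hist1h1b, Hist1h1t, Hist1h4d, Hist2h2be and Hist2h4. No window was unique in Hist2h2aa1, Hist2h2aa2, Hist2h2bb, Hist2h3b and Hist2h3c1. Hist2h2bb overlaps the antisense gene Gm20628 and the noncoding gene Gm42743, and Hist2h3c1 overlaps Gm20634 on its own strand. The use of strand in counting is not given in the sources used here, so reads of these genes cannot be told apart from those of their partners.

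Replicates of a group differed more in these genes than in others. The SD of log2(CPM + 0.5) between the 4 libraries of a group had a median of 0.716 over the 66 tested genes and 0.222 over all 15835 tested genes. It was 0.288 in H1, 0.629 in H2B, 0.767 in H2A, 0.776 in H3 and 0.875 in H4. The 38 tested genes with at least 50% unique windows had a median SD of 0.629 and the other 28 of 0.890. Hist1h4k shows the range: in wild-type control it was at 55.5, 3.63, 6.90 and 83.7 CPM in replicates 1 to 4. Those 4 libraries span the whole range of this gene over the 20 libraries. With R307W it was at 5.98, 58.6, 15.1 and 45.5 CPM. Hist2h2bb was steady within each group, at 398, 384, 453 and 388 CPM in wild-type control and 377, 343, 339 and 361 in -77KO control. Its wild-type control libraries all lay above its -77KO control libraries.

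**Figure D2:**
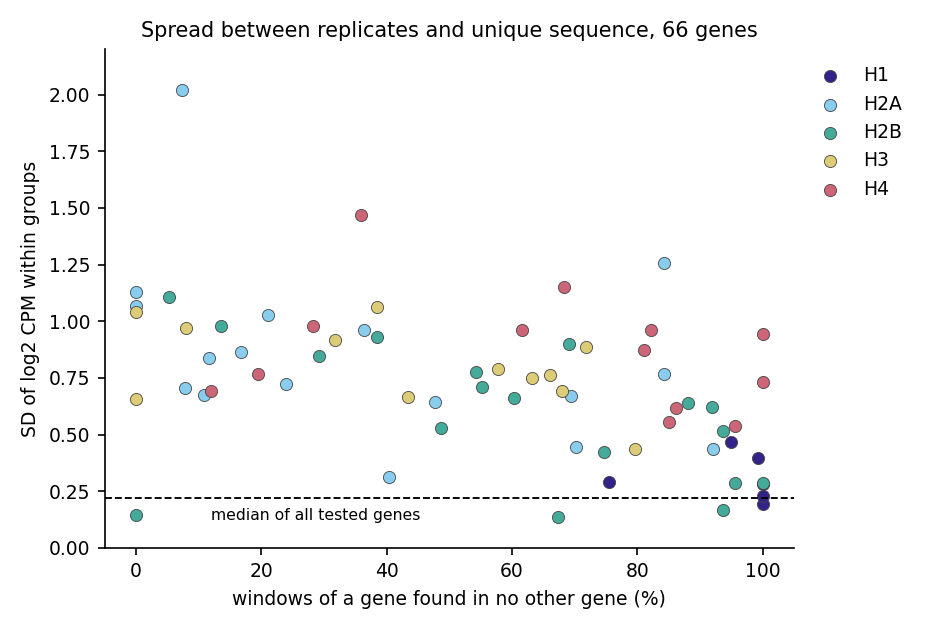
SD of log2(CPM + 0.5) between replicates of a group (vertical axis) against the share of a gene's 101-base windows found in no other gene (horizontal axis, percent), for the 66 tested histone cluster genes coloured by family. Most points lie above the dashed line at 0.222, the median of all tested genes, and the 6 H1 genes lie between 0.193 and 0.468.

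Replicate 4 had the highest summed level in every group. It was the highest library in all 5 groups in 8 of the 66 genes (12.1%), among them 3 H1 and 4 H2B genes and no H2A or H3 gene, against 2.6% of all tested genes. It exceeded the mean of the other 3 by a median log2 difference over the 66 genes of 1.34 in wild-type control, 1.18 in -77KO control, 0.94 with GATA2, 0.67 with R307W and 0.88 with T354M. Over all tested genes that median was within 0.01 of 0 in each group. The mean effective transcript length of the other nuclear RNAs in a library, weighted by their abundance, moved with this spread. The 10 libraries of shortest mean length (767 to 865 bases), which included all 5 replicate 4 libraries, had summed histone cluster levels of 7092 to 13689 TPM, with a median of 10408. The 10 of longest mean length (878 to 949 bases) had 5289 to 7201 TPM, with a median of 6363. Other RNAs without a poly(A) tail, such as Rn7sk and Rmrp, summed to 63286 to 86268 CPM in the first 10 libraries and 44326 to 62701 in the other 10. Nuclear RNAs of that kind enter the mean length themselves, so this shift was partly fixed by the measure and is no separate result. The 4 histone cluster genes listed for described polyadenylated forms summed to 266 to 560 CPM (median 414) and 211 to 301 CPM (median 237), with overlap. Hist1h1c made up most of that sum, with a median of 233 CPM over the 20 libraries against 8.87 to 20.0 CPM in the other 3. The 33 genes of DNA replication and S phase overlapped, at 3753 to 4939 and 3880 to 5830 CPM. Replicate 4 and mean length were singled out after the values were seen, and their part in the group differences was tested only by leaving replicate 4 out and by a covariate, given beside the results.

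**Figure D3:**
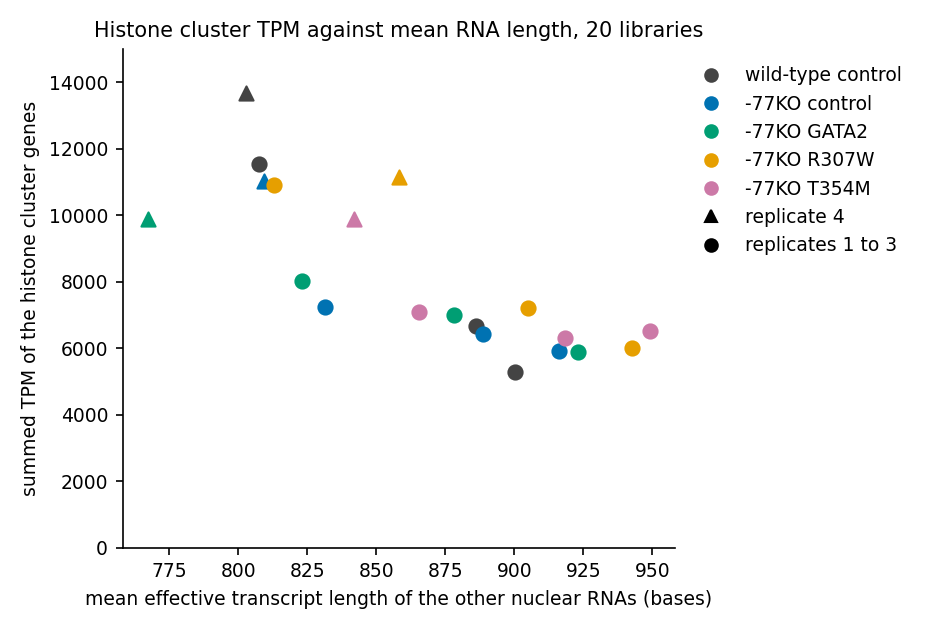
Summed TPM of the 70 histone cluster genes (vertical axis) against the mean effective transcript length of the other nuclear RNAs in bases (horizontal axis), 1 point per library, coloured by group, with triangles for replicate 4. Libraries of shorter mean length lie higher, and all 5 triangles are among the 10 shortest.

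The first comparison asked how loss of the -77 enhancer bears on these genes. In -77KO control cells 6 of the 66 tested genes fell against wild-type control and none rose. Over all tested genes 43.3% were called in either direction and 23.2% were lower, a larger share than 6 of 66 (9.09%). The 6 were Hist3h2ba, Hist3h2bb-ps, Hist2h2be and Hist1h2bb of the H2B family, Hist1h1a of H1 and Hist2h3c1 of H3, and no H2A or H4 gene was called. The log2 differences were below 0 in 62 of the 66 and in 8586 of all 15835 tested genes, with medians of -0.33 and -0.05. Many of the 66 share reads and move together within a library, so the 62 are not separate results. The median SE was 0.47 against 0.18 over all tested genes, so a difference of the median size was smaller than the median SE. In 5 of the 66 genes, all H2B, the libraries of the 2 groups did not overlap, against 38.8% of all tested genes. They were the 4 called H2B genes and Hist2h2bb, which was lower in -77KO control but not called. Without replicate 4 of every group the count was 8, including 5 of the 6, and with mean RNA length as a covariate it was 10, including all 6, each time with none higher. In bulk RNA, fewer cells of a type and less RNA per cell cannot be told apart. Late erythroid marker sums were lower and progenitor marker sums (1452 to 1526 against 762 to 955 CPM) higher in every -77KO control library, and hepatocyte sums overlapped. Within the progenitor list Cd34 (369 to 430 against 44.7 to 83.2 CPM), Ptprc and Spi1 were higher in every -77KO control library. Kit (73.4 to 79.5 against 105 to 146 CPM) and Myb (159 to 186 against 231 to 276 CPM) were lower in every one, and Runx1 overlapped. Mitochondrial genes took 27.1 and 26.0% of the counts in wild-type control replicates 2 and 3, the libraries of that group with the lowest histone cluster sums, and 20.0 to 22.1% in -77KO control. The part of these markers and shares in the result was not tested.

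Hist3h2ba (chr11:58948920-58949533, plus strand) encodes an H2B and had the largest difference among the 6. Its wild-type control libraries were at 9.83, 7.41, 11.1 and 14.1 CPM and its -77KO control libraries at 3.01, 2.01, 2.49 and 3.23. All 4 wild-type control libraries lay above all 4 -77KO control libraries. The mean fell from 10.6 ± 2.77 to 2.69 ± 0.547 CPM (SD, n = 4), 3.94-fold, with a log2 difference of -1.98 (SE 0.25, edgeR adjusted p = 3.76e-06). Of its windows 95.5% were unique. The call held under all 17 alternative settings without a fold limit.

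Hist3h2bb-ps (chr11:58954048-58954512, minus strand) is a processed pseudogene of an H2B gene, 93.7% unique. It was at 15.8, 14.7, 17.0 and 18.5 CPM in wild-type control and at 10.2, 9.80, 10.6 and 10.4 in -77KO control. The groups did not overlap, and the log2 difference was -0.69 (SE 0.13, edgeR adjusted p = 0.000338). Its head-to-head neighbour Hist3h2a was at 80.8, 34.9, 43.7 and 98.3 CPM and at 55.4, 44.7, 48.3 and 82.2. Those groups overlapped, with a log2 difference of -0.16 (edgeR adjusted p = 0.685), and Hist3h2a also overlaps Trim17 on the same strand. The 6 genes were spread over chromosome 11 (2 of 3 tested), chromosome 3 (2 of 10) and chromosome 13 (2 of 52).

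Hist2h2be (chr3:96221119-96223738, plus strand) is an H2B gene with a described polyadenylated form and only unique windows. It was at 9.78, 13.1, 16.8 and 13.2 CPM in wild-type control and at 7.86, 6.70, 8.13 and 6.64 in -77KO control, without overlap. The log2 difference was -0.85 (SE 0.20, edgeR adjusted p = 0.00232). Hist2h2ac, which starts 238 bases away on the other strand, had a log2 difference of -0.01 (SE 0.49, edgeR adjusted p = 0.990). The difference between these neighbours was not tested. The other 3 genes listed for described polyadenylated forms were not called. Hist1h1c was at -0.52, Hist1h2ac at -0.27 and Hist1h2bc at -0.19 (log2), with edgeR adjusted p of 0.179, 0.481 and 0.615.

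Hist1h2bb (chr13:23746734-23747241, plus strand) was the most abundant gene with a call. It was at 397, 324, 349 and 370 CPM in wild-type control and at 283, 220, 238 and 256 in -77KO control, without overlap. The log2 difference was -0.53 (SE 0.10, edgeR adjusted p = 0.000228). Its windows were 67.4% unique. In all 13 other genes shared windows with it, Hist1h2bk the most at 32.6%, so some of its reads may belong to them.

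Among linker histones, Hist1h1a (chr13:23763666-23764406, plus strand) fell. It was at 525, 372, 535 and 562 CPM in wild-type control and at 403, 328, 343 and 396 in -77KO control. Replicate 2 of wild-type control lay within the -77KO control range. The log2 difference was -0.44 (SE 0.13, edgeR adjusted p = 0.00975), and without wild-type control replicate 4 the adjusted p was 0.0517. The other abundant H1 genes had values in the same direction that did not pass: Hist1h1e at -0.48, Hist1h1b at -0.42 and Hist1h1c at -0.52 (log2), with edgeR adjusted p of 0.0506, 0.0783 and 0.179. With mean RNA length as a covariate all 3 passed, at edgeR adjusted p of 0.00578, 0.0246 and 0.0268. The H1 sum was lower in -77KO control by a mean log2 difference of -0.34, with a pooled SD of 0.18. Hist1h1t, the testis H1, was at most 0.743 CPM in any library.

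Hist2h3c1 (chr3:96246685-96248509, plus strand), an H3 gene without a unique window, was the least secure of the 6. It was at 1.78, 8.0, 8.36 and 12.2 CPM in wild-type control and at 2.82, 6.03, 1.79 and 2.17 in -77KO control, with overlap. The log2 difference was -1.25 (SE 0.45, edgeR adjusted p = 0.0327). The call was lost without -77KO control replicate 1, 3 or 4 or wild-type control replicate 2, 3 or 4, at edgeR adjusted p of 0.0606 to 0.149. The leading H3 gene Hist1h3b was at 40.7 to 148 CPM in wild-type control and 54.2 to 124 in -77KO control.

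H2A and H4 genes gave no call in this comparison. In H2A the median log2 difference over 17 tested genes was -0.48 with a median SE of 0.63. In H4 the median was -0.31 over 13 genes with a median SE of 0.55. Hist1h2ab, the leading H2A gene, was at 75.6, 32.5, 35.3 and 116 CPM in wild-type control and 38.8, 30.2, 29.4 and 74.7 in -77KO control. Hist1h4f, the leading H4 gene, was at 158, 27.9, 46.5 and 200 CPM and at 62.6, 41.3, 53.0 and 151. In both genes replicate 4 was highest and replicate 2 or 3 lowest in each of the 2 groups, and the groups overlapped throughout.

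**Figure D4:**
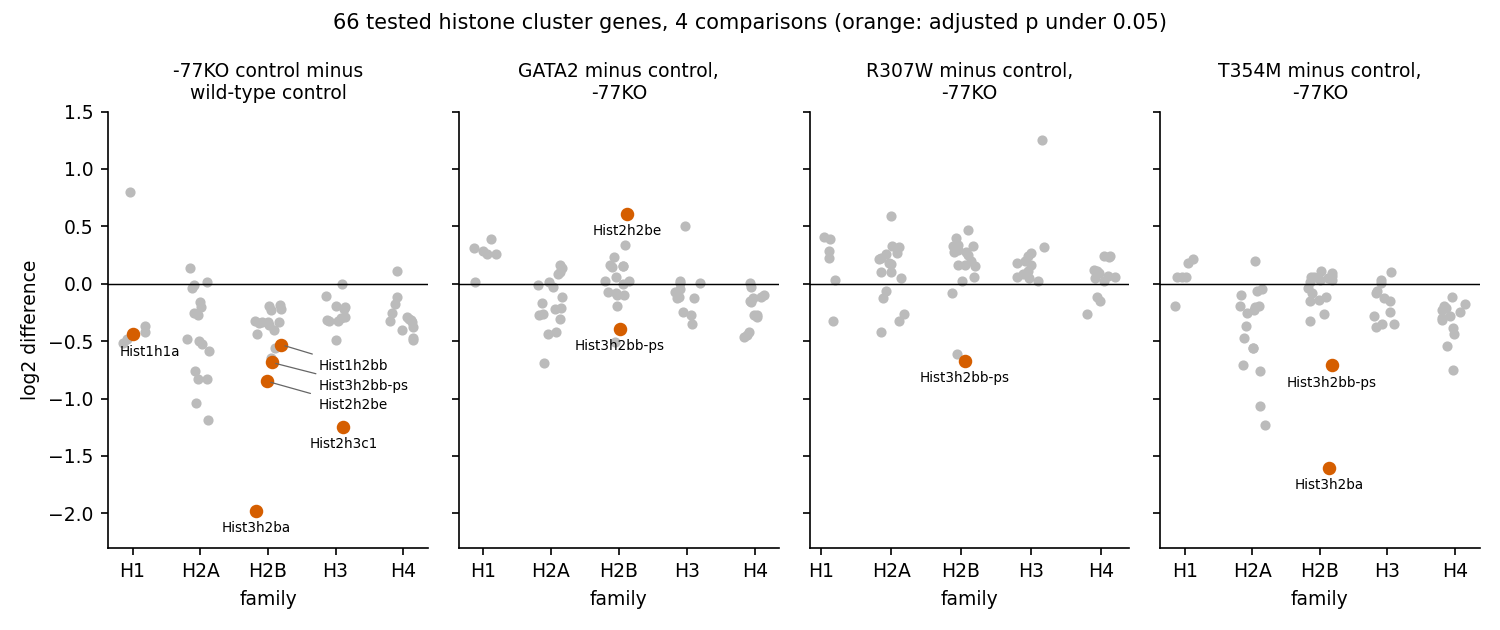
Log2 differences of the 66 tested histone cluster genes (vertical axis) by family (horizontal axis) in 4 comparisons, with genes of adjusted p under 0.05 in orange and named. In the first panel 62 of 66 points lie below 0 and 6 are orange, and in the other 3 panels the orange points are 2, 1 and 2.

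The next comparisons asked what GATA2 and its 2 variants do in -77KO cells. All 3 share the -77KO control libraries with one another and with the comparison above, so their values are set side by side and no overlap is drawn. With GATA2, 1 of 66 genes rose and 1 fell, against 19.2% of all tested genes called. With R307W 1 fell and none rose, where 7.48% of all tested genes fell and 17.5% were called in either direction. With T354M 2 fell and none rose, where 8.11% of all tested genes fell and 17.4% were called. The median log2 difference over the 66 was -0.08 with GATA2, 0.16 with R307W and -0.19 with T354M, against medians over all tested genes of 0.00, 0.02 and 0.02. Without replicate 4 of every group the counts were 0 with GATA2, 1 with R307W and 2 with T354M. With mean RNA length as a covariate 2 rose and 2 fell with GATA2, 6 rose and 1 fell with R307W, and 1 rose and 2 fell with T354M. The libraries did not overlap in 2 genes with GATA2, 1 with R307W and 3 with T354M, against 28.3, 27.1 and 24.9% of all tested genes. Late erythroid marker sums were 108 to 623 CPM in -77KO control, 48.7 to 180 with GATA2, 104 to 333 with R307W and 33.6 to 112 with T354M, with overlap. Of the progenitor markers, Myb was at 159 to 186 CPM in -77KO control and 306 to 669 in the 12 vector libraries, and Cd34 at 369 to 430 and 113 to 298. Hepatocyte marker sums were 223 to 1021 CPM with GATA2, 101 to 860 with R307W and 221 to 1184 with T354M, and overlapped those of -77KO control. The part of these markers in the results was not tested.

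Mean Hist3h2ba was lower with each vector than in -77KO control. It was at 1.61, 1.90, 2.29 and 1.78 CPM with GATA2 and at 1.62, 2.08, 1.40 and 1.90 with R307W. With T354M it was at 0.803, 0.926, 1.33 and 0.483 CPM, below all -77KO control libraries. Its log2 difference from -77KO control was -0.50 with GATA2 (SE 0.25, edgeR adjusted p = 0.178) and -0.61 with R307W (SE 0.25, edgeR adjusted p = 0.0994). With T354M it fell by 1.60 (SE 0.26, edgeR adjusted p = 0.000398). Against wild-type control the GATA2 group was 5.59-fold lower, a log2 difference of -2.48 (SE 0.25, edgeR adjusted p = 7.65e-07).

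Hist3h2bb-ps fell further with all 3 vectors. It was at 7.74, 6.89, 9.67 and 6.99 CPM with GATA2, at 5.28, 7.98, 6.07 and 6.43 with R307W and at 5.97, 6.25, 7.21 and 5.67 with T354M. All 12 libraries lay below the lowest -77KO control library at 9.80 CPM. The log2 differences were -0.39 with GATA2 (SE 0.13, edgeR adjusted p = 0.0457), -0.67 with R307W (SE 0.13, edgeR adjusted p = 0.0022) and -0.71 with T354M (SE 0.13, edgeR adjusted p = 0.00134). The GATA2 call was lost without GATA2 replicate 1, 2 or 4 or any 1 of the 4 -77KO control libraries, at edgeR adjusted p of 0.0664 to 0.152. Hist3h2a was at 31.4, 44.5, 42.2 and 52.3 CPM with GATA2 and 29.4, 61.6, 37.9 and 43.6 with R307W. With T354M it was at 28.0, 34.5, 40.7 and 38.0 CPM, below all -77KO control libraries, with a log2 difference of -0.71 that did not pass (SE 0.29, edgeR adjusted p = 0.0998).

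Hist2h2be rose with GATA2 and was not called with either variant. It was at 12.3, 9.66, 9.26 and 13.5 CPM with GATA2, above all -77KO control libraries, with a log2 difference of 0.61 (SE 0.20, edgeR adjusted p = 0.0431). The call was lost without GATA2 replicate 1 or 4 or any 1 of the 4 -77KO control libraries, at edgeR adjusted p of 0.0601 to 0.153. With R307W it was at 10.9, 8.48, 6.81 and 14.3 CPM (log2 difference 0.47, SE 0.20, edgeR adjusted p = 0.122). With T354M it was at 7.23, 5.06, 5.91 and 6.15 CPM (log2 difference -0.27, SE 0.21, edgeR adjusted p = 0.421).

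Hist1h2bb and the H1 genes were not called with any vector. Hist1h2bb was at 282, 270, 299 and 324 CPM with GATA2, 282, 318, 286 and 300 with R307W and 260, 216, 291 and 280 with T354M. In each of the 3 groups some libraries lay within the -77KO control range. Its log2 differences from -77KO control were 0.24, 0.25 and 0.07, with edgeR adjusted p of 0.101, 0.0833 and 0.682. With mean RNA length as a covariate it passed with GATA2 and R307W, at edgeR adjusted p of 0.0435 and 0.0101. With that covariate Hist1h1e also passed with R307W and T354M (edgeR adjusted p = 0.00858 and 0.0458), and Hist1h1c with R307W (edgeR adjusted p = 0.0134). Under the replicate block Hist1h1e and Hist1h2bb passed with R307W (edgeR adjusted p = 0.0418 and 0.0382). Hist1h1a was at 333, 378, 386 and 386 CPM with GATA2, 316, 408, 346 and 434 with R307W and 299, 275, 349 and 365 with T354M. Its log2 differences were 0.01, 0.03 and -0.19 (edgeR adjusted p = 0.967, 0.894 and 0.351). Hist2h3c1 was at 8.64, 5.40, 5.78 and 10.6 CPM with R307W (log2 difference 1.25, SE 0.45, edgeR adjusted p = 0.0633), and it passed without -77KO control replicate 2, at edgeR adjusted p = 0.0189. The R307W count was 2 without R307W replicate 3 or without -77KO control replicate 1 or 2.

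**Figure D5:**
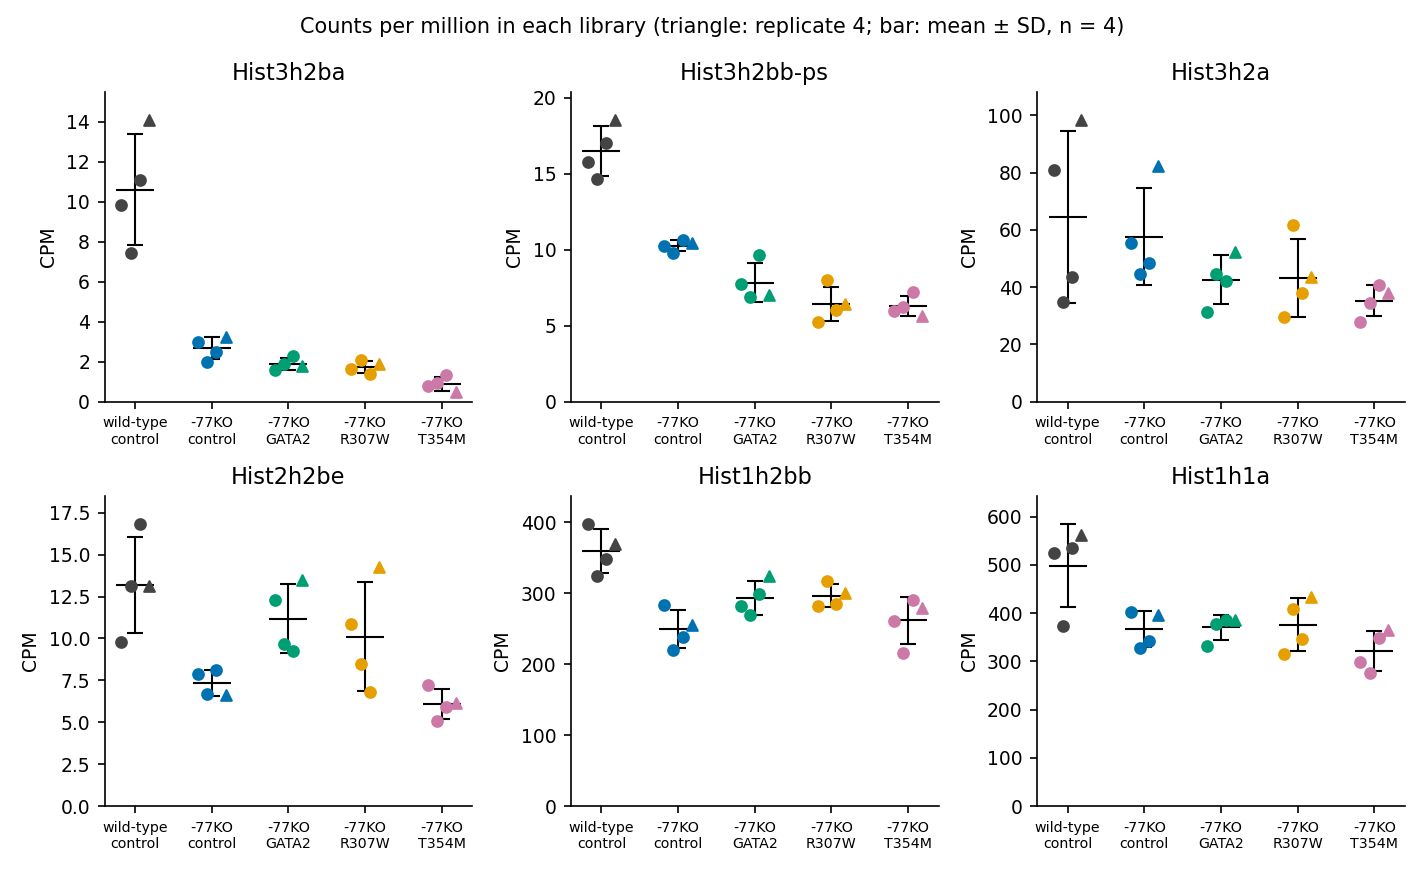
CPM in each library (vertical axes from 0) of 6 histone cluster genes in the 5 groups, with triangles for replicate 4 and bars for the mean ± SD of 4 libraries. Hist3h2ba averages 10.6 CPM in wild-type control and 0.887 with T354M, and Hist2h2be is higher with GATA2 (11.2) than in -77KO control (7.33) or with T354M (6.09).

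GATA2 against wild-type control gave 4 genes lower and none higher, where 16.0% of all tested genes were lower and 30.7% called in either direction. The 4 were Hist3h2ba, Hist3h2bb-ps with a log2 difference of -1.08 (SE 0.13, edgeR adjusted p = 6.09e-06), Hist1h1a with -0.43 (SE 0.13, edgeR adjusted p = 0.0168) and Hist1h2bb with -0.29 (SE 0.10, edgeR adjusted p = 0.0277). Hist2h2be did not pass, at -0.24 (SE 0.20, edgeR adjusted p = 0.397). The libraries did not overlap in 3 genes (Hist3h2ba, Hist3h2bb-ps and Hist1h1t), against 25.3% of all tested genes. Hist1h1t, at most 0.743 CPM in any library, was higher with GATA2 by 1.08 (log2) and was not called. It passed as higher with the replicate block and with only the 8 libraries compared (edgeR adjusted p = 0.0269 and 0.0410). It also passed without GATA2 replicate 2 or wild-type control replicate 1 (edgeR adjusted p = 0.0468 and 0.0485). Of the 66 genes 63 were below 0, against 7988 of all 15835 tested genes, with medians of -0.38 and 0.00. The median SE over the 66 was 0.47. Many of the 66 share reads and move together within a library, so the 63 are not separate results. The count was 2 without GATA2 replicate 1, without wild-type control replicate 4, or without replicate 4 of every group. The Hist1h1a call was also lost without GATA2 replicate 2 or wild-type control replicate 3, with adjusted p up to 0.0834 by edgeR. The Hist1h2bb call was lost without GATA2 replicate 1, 2 or 3 or wild-type control replicate 1, 3 or 4, at edgeR adjusted p of 0.0601 to 0.139.

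The variants were then set against wild-type GATA2 and against each other. No gene of the 66 was called between R307W and GATA2 by edgeR or by DESeq2, and 0 had an unadjusted edgeR p under 0.05, where 1.73% of all tested genes (274) were called. No gene of the 66 had libraries without overlap, against 6.08% of all tested genes. Between T354M and GATA2 2 genes were lower with T354M, where 6.14% of all tested genes were lower. Hist3h2ba differed by -1.10 (log2, SE 0.27, edgeR adjusted p = 0.0102) and Hist2h2be by -0.88 (SE 0.20, edgeR adjusted p = 0.00808), both without overlap of libraries, which 14.8% of all tested genes showed. Without replicate 4 of every group the Hist3h2ba call was lost (edgeR adjusted p = 0.0535), and with mean RNA length as a covariate 4 genes were higher and 2 lower with T354M. Between R307W and T354M 1 gene was called, higher with R307W, where 2.3% of all tested genes were higher and 3.49% called. The libraries did not overlap in 2 genes, Hist3h2ba and Hist2h3c1, against 8.14% of all tested genes. Hist3h2ba was higher with R307W by 0.99 (log2, SE 0.27, edgeR adjusted p = 0.0466). That call was lost without R307W replicate 1, 2 or 4 or T354M replicate 1, 2 or 4, at edgeR adjusted p of 0.0795 to 0.146, and without replicate 4 of every group at 0.291. Hist2h2be differed by 0.73 (SE 0.20, edgeR adjusted p = 0.0555), and with the replicate block it passed (edgeR adjusted p = 0.0444) and the count was 2. The count was also 2 without R307W replicate 3. Of the 66 genes 64 were above 0, against 7602 of all 15835 tested genes, with medians of 0.30 and -0.01. The median SE over the 66 was 0.47, and the summed TPM differed by a mean log2 difference of 0.22 against a pooled SD of 0.44. Many of the 66 share reads and move together within a library, so the 64 are not separate results.

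The lists of genes that make and handle histones and copy DNA were read in the same fits. In -77KO control against wild-type control 43.3% of all tested genes were called and 23.2% fell, which is the background of the counts that follow. Of 20 genes of histone RNA processing, 4 fell and 1 rose in -77KO control against wild-type control. Slbp, the stem-loop binding protein, fell from 216 ± 43.4 to 135 ± 10.3 CPM (SD, n = 4), a log2 difference of -0.68 (SE 0.11, edgeR adjusted p = 3.68e-05). Npat, which activates histone genes at the start of S phase, fell by 0.46 and Cpsf2, part of the cleavage complex, fell by 0.50, whereas Cpsf3, the nuclease of that complex, rose by 0.43 (log2). Eri1, an exonuclease that trims histone RNA ends, fell by 0.26. Of 33 genes of DNA replication and S phase, 21 fell and none rose, with a median log2 difference of -0.36 against -0.05 over all tested genes. Ccne1, a cyclin of S-phase entry, fell by 1.38 and Cdc6, which loads the replicative helicase, fell by 0.98. Of 15 histone chaperones, Daxx (0.52) and Rbbp7 (0.21) rose and Chaf1a (-0.36) and Asf1a (-0.43) fell. Of 10 tested replication-independent histone variants, H2afy (macroH2A1) rose from 174 ± 29.7 to 724 ± 7.88 CPM, a log2 difference of 2.05 (SE 0.19, edgeR adjusted p = 7.64e-08), and Cenpa, the centromeric H3, fell by 0.41. Of 10 tested entries for other RNAs without a poly(A) tail, only Rnu12 was called, at -0.89 (SE 0.21, edgeR adjusted p = 0.00176). Late erythroid markers were lower in the same libraries, and their part in these counts was not tested.

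The same lists were read with each vector, where 19.2% of all tested genes were called with GATA2, 17.5% with R307W and 17.4% with T354M. With GATA2, 2 of 33 S-phase genes rose (Cdk2 and Tyms), as did 2 of 20 processing genes (Cpsf2 and Lsm11, a U7 subunit). Of the 10 variants, the linker histone H1f0 rose by 0.91 and Cenpa by 0.22, and H2afy fell by 0.86 (log2). With R307W, 2 S-phase genes (Cdk2 and Tyms), 3 processing genes (Npat, Cpsf2 and Lsm11) and Cenpa rose, and H2afy fell by 0.79. With T354M, 6 S-phase genes and the processing gene Cstf2 rose, and no variant was called. Among chaperones Chaf1a rose and Daxx fell with T354M, and none was called with GATA2 or R307W. None of the other RNAs without a poly(A) tail was called with any vector. Slbp had log2 differences from -77KO control of 0.19 with GATA2, 0.26 with R307W and 0.12 with T354M, with edgeR adjusted p of 0.227, 0.0894 and 0.506. Against wild-type control Slbp stayed lower with GATA2, at a log2 difference of -0.49 (SE 0.11, edgeR adjusted p = 0.00147).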

How the data were processed

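Total RNA was sequenced in 20 libraries, 4 in each of 5 groups, and grouped by the samples' genotype and vector labels. The authors deposited 1 RSEM table per library with expected counts, TPM and FPKM per gene, per the file headers. The submitters' processing notes name STAR 2.5.2b, RSEM 1.3.0 and mm10, and the annotation is not given in the sources used here. RSEM divides reads that fit several genes, so the deposited counts of near-identical histone copies depend on that division. The deposited FPKM values were not used, and the deposited TPM values served for levels between genes.

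Expected counts were rounded, filtered with filterByExpr (15835 genes kept), scaled by TMM and fitted in edgeR 4.0.16 (R 4.3.3) by the quasi-likelihood F test over all 20 libraries with 5 group means (15 residual degrees of freedom). Benjamini-Hochberg adjustment took in all tested genes, calls used an adjusted p threshold of 0.05, and SE is the log2 difference divided by the square root of F. Data were simulated for -77KO control against wild-type control (15627 genes). Of these, 64 of 100 genes changed 2-fold and 85 of 100 changed 4-fold were recovered, with 9 false calls. The changed genes were drawn at random from all genes, whose median SE was 0.18 in this comparison against 0.47 in the 66 histone cluster genes. These rates thus do not hold for the 66 genes. Spread was measured on log2(CPM + 0.5). Symbols came from GENCODE M21 and promoters from RefSeq. Sequences of proteins were not used here.

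The members and the gene lists were chosen with earlier results of these data known. Named were the 4 genes of highest mean TPM per family, all genes with described polyadenylated or testis forms, the 3 highest and 3 lowest called genes (mean of at least 1 CPM in 1 group) in each comparison with a control group as the reference of the enhancer loss or of a vector, Slbp, and the 2 genes of lowest adjusted p per further list. Hist3h2a and other genes outside that rule were chosen after their values were seen. Some listed cell type markers are not reported here and are in no sum.

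Alternatives were DESeq2 1.42.0 size factors and Wald test, no count filter, a replicate block, only the 8 libraries compared, limma 3.58.1 on log2(TPM + 1), a fold limit of 2, nuclear genes without ribosomal RNA, replicate 4 left out, each library left out, and, chosen after seeing the data, mean RNA length as a covariate. Same-numbered libraries correlated above 0.1 in their deviations in every pair for GATA2 against -77KO control. So they did in the 3 comparisons among vectors with GATA2, R307W and T354M. Same-numbered pairs were at 0.219 to 0.623 for R307W against GATA2 and 0.159 to 0.551 for T354M against GATA2. For R307W against T354M they were at 0.204 to 0.667. Libraries of different number in these comparisons were at -0.513 to 0.338. Some libraries of different number correlated more: T354M replicate 2 was at 0.302 with GATA2 replicate 3 and 0.159 with GATA2 replicate 2. R307W replicate 3 was at 0.338 with T354M replicate 2 and 0.204 with T354M replicate 3. Whether the numbers pair the samples is thus not settled, and the main fit leaves pairing out. In the other 4 comparisons not every same-numbered pair correlated above 0.1.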

Additional observations from a re-analysis of the deposited data

Results flagged for a closer look

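In each group of 4 libraries the gap of the highest or lowest value to its neighbour was set against the group's whole range, and 8 of 165 such groups had a gap above Dixon's critical share of the range. Chance alone gives about 1 in 20. Of the 8, 6 were libraries numbered replicate 4 standing high, 4 of them in -77KO control. The H2A sum of -77KO control replicate 4 was 961 TPM and that of T354M replicate 4 was 660 TPM. Hist2h2aa2, Hist1h4h and Hist1h4k stood high in -77KO control replicate 4, at 114, 142 and 79.2 CPM. Hist1h1b stood high in GATA2 replicate 4, at 325 CPM. Hist1h1a stood low in GATA2 replicate 1, at 333 CPM, and Hist1h1t stood high in -77KO control replicate 3, at 0.743 CPM.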

How the results depend on the processing

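For differences of named histone cluster genes that were called, 0 of 324 values in alternatives changed sign. For those not called 343 of 3560 did, and for family sums, which have no test, 92 of 520 did. Over the named genes 3774 values stayed on their side of the threshold, 44 passed it only in an alternative and 66 no longer passed it. Counts of histone cluster genes called are given by setting, and the cause of each change was not tested unless fewer genes or libraries made it. With a fold limit of 2 the counts were 2 for -77KO control against wild-type control, 0 for GATA2, 0 for R307W and 1 for T354M against -77KO control, 1 for T354M against GATA2, 0 for R307W against T354M and 2 for GATA2 against wild-type control. With the replicate block they were 11 for -77KO control against wild-type control, 4 for R307W against -77KO control, 2 for R307W against T354M and 7 for GATA2 against wild-type control, and it moved no other count by over 1.5 times. With RNA length as a covariate they were 10 for -77KO control against wild-type control, 4 for GATA2 and 7 for R307W against -77KO control, and 6 for T354M against GATA2. Without the filter they were 1 for GATA2 and 2 for R307W against -77KO control, with Hist2h2be kept for GATA2 and Hist2h3c1 added for R307W. Limma also gave 1 and 2, with Hist3h2bb-ps kept for GATA2 and Hist1h2bb added for R307W. DESeq2's Wald test gave 2 for R307W against -77KO control and 2 for R307W against T354M. With 8 libraries they were 2 for R307W against -77KO control, 1 for T354M against GATA2 and 0 for R307W against T354M. Without replicate 4 of every group they were 0 for GATA2 against -77KO control, 1 for T354M against GATA2, 0 for R307W against T354M and 2 for GATA2 against wild-type control. Leaving out each library in turn gave 4 to 7 for -77KO control against wild-type control, 0 to 2 for GATA2, 1 to 2 for R307W and 2 to 2 for T354M against -77KO control. It gave 0 to 0 for R307W against GATA2, 2 to 2 for T354M against GATA2, 0 to 2 for R307W against T354M and 2 to 6 for GATA2 against wild-type control. A further sum took only genes whose expected counts were whole (within 0.005) in at least 10 libraries, 11 genes over all families. Its H2B log2 difference was -0.74 for -77KO control against wild-type control and 0.58 for GATA2 against -77KO control. It was -0.83 for T354M against GATA2 and 0.69 for R307W against T354M. That H2B sum ran from 2.07 to 5.99 TPM, the same range as Hist2h2be alone. These values thus speak for Hist2h2be and not for the H2B family. Without the filter the median of all genes moved by -0.13 for -77KO control and -0.17 for GATA2 against wild-type control. Under DESeq2 size factors that median changed from 0.02 to -0.01 for R307W and for T354M against -77KO control. Hist2h3c1 and the GATA2 calls of Hist2h2be and Hist3h2bb-ps also failed without replicate 4 of every group, at edgeR adjusted p of 0.278, 0.203 and 0.220.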

Other observations

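Genes within 100 kb of the Hist3 cluster on chromosome 11 were read after its values were seen. In -77KO control against wild-type control Btnl10 fell by 5.55 (log2, SE 0.57, edgeR adjusted p = 3.46e-07), Zfp39 fell by 1.12 (SE 0.12, edgeR adjusted p = 4.21e-07) and 2810021J22Rik fell by 0.81 (SE 0.17, edgeR adjusted p = 0.00066). Rnf187 was at -0.01, Trim11 at 0.01 and 2310058D17Rik at -0.21 (edgeR adjusted p = 0.964, 0.920 and 0.406).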
